A study of Rattus norvegicus with 8 samples.

Results

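Neurons release transmitter by fusing small synaptic vesicles with the membrane of the nerve terminal, and the genes described here encode the parts of that release machinery. The set comprised 42 rat presynaptic genes listed by name. The list uses no measured value in its rule, but it was drawn up with earlier results of these data known. They encode the calcium sensors, SNARE proteins, priming and active zone factors, vesicle membrane proteins, vesicular glutamate transporters and the proteins that retrieve the membrane. Of these genes, 40 were matched to a probe by RefSeq accession and 39 were measured, of 12148 named genes measured in all. A gene counted as measured if 1 or more groups had a probe of it well above background throughout, and its brightest such probe stood for it. Syp, the synaptophysin gene, and Cadps2 were matched to no probe and are not analysed here. Slc17a7, which encodes the vesicular glutamate transporter VGLUT1, was not well above background on any of the 8 arrays.

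In the release cycle, a vesicle is tethered by Rab3 and its effectors at the active zone, primed by Munc13 and CAPS proteins, and held by complexins. Calcium entering the terminal then acts on synaptotagmins, and the SNARE proteins of vesicle and plasma membrane zipper together and drive fusion. NSF and its SNAP adaptors pull the spent SNARE complexes apart, and dynamin and amphiphysin help to recover the membrane. Sensory neurons of the dorsal root ganglion use this machinery at their central terminals, where most of them release glutamate loaded by VGLUT2, and members of the same families also act in the release of neuropeptides.

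The cells were dissociated dorsal root ganglia of Wistar rats aged 0 to 5 days, male and female cells pooled. They were kept for 2 to 3 days in serum-free medium with N2 supplement and the antimitotic 5-fluoro-2'-deoxyuridine, with uridine. A human protein, hNGF in the labels, was then added at 100 ng/ml, and the cells were kept with it for 5 days. It came in 1 of 3 forms: the single mutant P61S (n = 3 arrays), the double mutant P61S/R100E (n = 3 arrays) or the wild type (n = 2 arrays). All groups thus carried the protein, and no culture without it was analysed here. Whether the replicates were separate cultures or animals is not stated in the labels, and the p-values therefore measure only the spread between these samples, which may be technical.

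The 8 one-colour arrays lay on 1 slide and shared 1 scan. Their 75th percentile signal ran from 3267 to 5269 scanner units, 78.7% to 88.8% of spots were well above background, and 0 were saturated. Their number limits the precision. Wild type replicate 2 stood apart, with correlations of 0.983 to 0.989 with the other arrays across tested probes, which are not independent replicates. That array also had the lowest 75th percentile signal, 3267, and the highest share of spots flagged as outliers, 1.98%. Both wild type arrays lay in the same slide column, which held no mutant array. Column and protein thus cannot be told apart in any comparison with wild type. Column 1 held only P61S arrays and column 3 only P61S/R100E arrays. The mutants can therefore be compared within a column only in column 2, which held 1 array of each. Neuronal markers outside the set were present throughout. For the 17 of 21 pan-neuronal markers measured, the summed signal was 207 to 237 times the array's 75th percentile signal with P61S, 221 to 237 with P61S/R100E and 214 to 243 with wild type. The cultures also held other cells: 17 of 19 glial markers summed to 101.4 to 107.8, 104.5 to 116.9 and 106.4 to 107.9 in the same order, and 10 fibroblast markers to 152 to 167, 159 to 192 and 167 to 169. Macrophage markers (10 measured) summed to 5.13 to 6.34 over all arrays. The 8 measured endothelial and mural markers summed to 2.1 to 2.46, with Tek and Tie1 not measured. Since the arrays read the RNA of all cells together, fewer neurons and less RNA per neuron cannot be told apart.

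No gene of the release machinery differed between the proteins at the adjusted threshold. In limma, 0 of 39 members and 0 of 23585 probes (0%) were called in each of the 3 comparisons at an adjusted p under 0.05. An F test over the 3 groups called 0 members. At an unadjusted p under 0.05 that F test took 0 members, against 3.34% of all tested probes. Values throughout are log2 signals relative to the array's 75th percentile, so 0 stands for that percentile and a difference of 1 for a 2-fold change. The differences between P61S/R100E and P61S ran from -0.39 for the calcium sensor Syt1 to 0.31 for the complexin Cplx2. For 36 of the 39 members (92.3%) the 95% interval of that difference lay inside a 2-fold change in either direction, as for 87.7% of all probes. For 26 (66.7%) it lay inside 1.5-fold, as for 64.8% of probes. The 3 whose intervals reached beyond 2-fold were Syt1, Nsf and Dnm1. Against wild type, the interval lay inside 2-fold for 32 members with P61S/R100E (82.1%, beside 79.5% of probes). With P61S it did so for 33 (84.6%, beside 81.9% of probes).

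**Figure D1:**
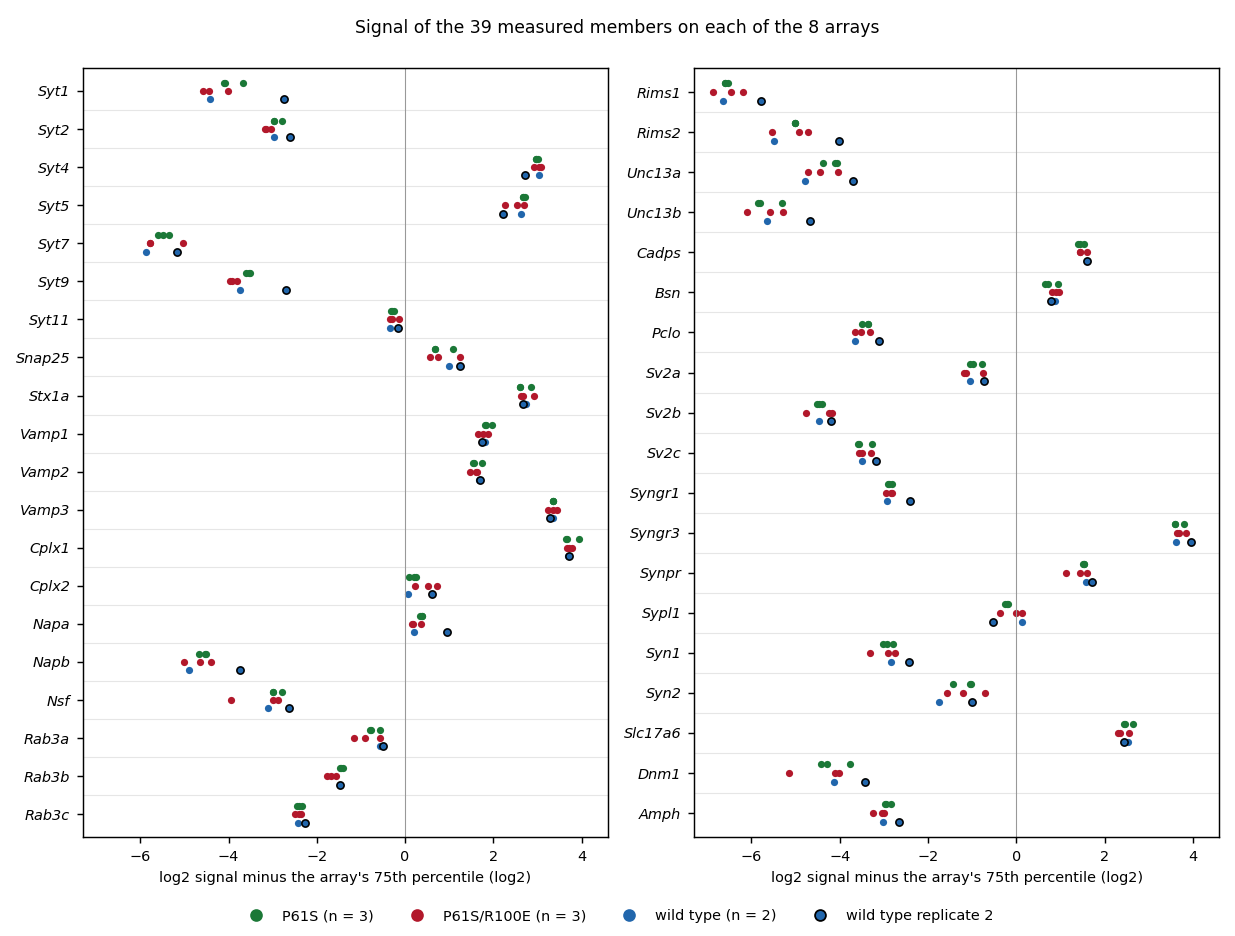
Log2 signal minus that of the array's 75th percentile (x axis) of the 39 measured members, 1 point per array, with P61S in green, P61S/R100E in red and wild type in blue. The black rim marks wild type replicate 2, which for Syt1 stands at -2.74 while the other 7 arrays lie between -4.58 and -3.68.

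In 3 members the window upstream of the gene start held a full cyclic AMP response element (CRE), the site of CREB, a transcription factor that calcium and cyclic AMP signals activate in neurons. The windows were taken from RefSeq on build GRCr8, which gave one or more windows of 300 bases (250 before the start and 50 after it) for 34 members, 35 windows in all. The motif was TGACGTCA, which is its own reverse complement. It was found in 3 of 35 member windows (8.57%) and in 1.83% of all 33469 windows. The 250 bases before the start of the 3 genes are given 5′ to 3′, with the CRE in capitals. Napa lies at chr1:85915185-85915434, Vamp1 at chr4:159698644-159698893 and Syn1 at chrX:3725495-3725744, all on the plus strand.
Napa: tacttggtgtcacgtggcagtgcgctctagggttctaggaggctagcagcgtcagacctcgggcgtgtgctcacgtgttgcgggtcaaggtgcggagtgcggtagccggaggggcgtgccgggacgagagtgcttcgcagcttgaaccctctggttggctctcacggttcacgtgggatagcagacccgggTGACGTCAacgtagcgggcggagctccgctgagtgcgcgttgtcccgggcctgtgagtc
Vamp1: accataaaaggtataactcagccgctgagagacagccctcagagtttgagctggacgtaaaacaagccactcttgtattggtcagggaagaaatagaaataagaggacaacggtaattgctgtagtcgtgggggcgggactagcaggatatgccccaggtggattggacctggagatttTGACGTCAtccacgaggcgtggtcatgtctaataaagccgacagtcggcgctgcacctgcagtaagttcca
Syn1: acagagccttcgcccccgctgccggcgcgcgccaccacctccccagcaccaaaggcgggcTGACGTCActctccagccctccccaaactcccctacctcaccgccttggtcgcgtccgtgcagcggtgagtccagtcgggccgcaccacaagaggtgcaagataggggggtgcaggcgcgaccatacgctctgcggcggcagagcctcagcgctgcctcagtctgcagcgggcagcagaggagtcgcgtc
The element began 59 bases before the start in Napa, 71 in Vamp1 and 190 in Syn1. A GC box (GGGCGG on either strand) was present in 26 of 35 member windows (74.3%) and in 33.1% of all windows. A TATA box (TATAAA on either strand) was found in 0 member windows and in 14.2% of all windows. These matches describe the letters and say nothing of binding.

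Synaptotagmins are the calcium sensors of release, and limma called 0 of them in any comparison. Syt2, a fast sensor, read -2.96, -2.78 and -2.97 with P61S, -3.17, -3.05 and -3.15 with P61S/R100E, and -2.97 and -2.61 with wild type. All 3 P61S/R100E arrays lay below every other array. The difference from P61S was -0.22 (SE 0.116) and from wild type -0.33 (SE 0.13), with adjusted limma p-values of 0.999 and 0.746. The latter difference was -0.15 without wild type replicate 2 and -0.51 without replicate 1. Syt9, a further fast sensor, stood at -3.60, -3.52 and -3.55 with P61S, at -3.80, -3.96 and -3.91 with P61S/R100E, and at -3.73 and -2.69 with wild type. Here too the P61S/R100E arrays were the lowest, and the wild type group was split by its second replicate. Against P61S the difference was -0.34 (SE 0.242). Against wild type it was -0.68 (SE 0.27, 1.6-fold, by limma, adjusted p = 0.746), -0.16 without wild type replicate 2 and -1.20 without replicate 1.

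Syt1, the main sensor of fast release in the forebrain, had 95% bounds of -1.36 and 0.58 for the difference between the mutants. It read -4.09, -3.68 and -4.11 with P61S, -4.45, -4.58 and -4.02 with P61S/R100E, and -4.42 and -2.74 with wild type. The P61S and P61S/R100E arrays overlapped, and wild type replicate 2 stood above all other arrays. The difference between P61S/R100E and wild type, -0.77 (95% bounds -1.85 and 0.31), turned to 0.066 without wild type replicate 2. Syt5 read 2.68, 2.67 and 2.71 with P61S, 2.26, 2.68 and 2.53 with P61S/R100E, and 2.62 and 2.21 with wild type. P61S was above both wild type arrays by 0.27 on average (SE 0.164, by limma, adjusted p = 0.999), and by 0.063 without wild type replicate 2. Syt4, an isoform tied to dense-core vesicles, read 2.96, 2.97 and 3.01, then 2.93, 3.08 and 3.03, then 3.02 and 2.72 in the same order of groups, and the groups overlapped. Syt11, which does not bind calcium, spanned -0.34 to -0.14 over the 8 arrays. Syt7, a slow high-affinity sensor, spanned -5.88 to -5.02, and its differences lay between -0.05 and 0.04. Those from wild type average arrays that disagree. They were -0.37 with P61S/R100E and -0.31 with P61S without wild type replicate 1, and 0.35 and 0.40 without replicate 2.

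SNARE proteins form the fusion complex itself, and limma called 0 of the 5 SNARE genes (Snap25, Stx1a, Vamp1, Vamp2, Vamp3) in any comparison. Stx1a, the plasma membrane syntaxin, read 2.60, 2.86 and 2.60 with P61S, 2.62, 2.91 and 2.68 with P61S/R100E, and 2.74 and 2.67 with wild type. Its differences were 0.05 between the mutants (95% bounds -0.22 and 0.33), 0.04 for P61S/R100E and -0.01 for P61S against wild type. Vamp2, the vesicle SNARE of most central synapses, read 1.54, 1.74 and 1.56, then 1.62, 1.6 and 1.47, then 1.68 and 1.70. P61S/R100E lay below both wild type arrays with a difference of -0.13 (SE 0.0994, by limma, adjusted p = 0.752). Vamp1, its close relative and one of the 3 genes with a CRE shown above, read 1.81, 1.97 and 1.82, then 1.66, 1.89 and 1.77, then 1.81 and 1.74. All P61S values were above those of wild type, the closest pair being equal after rounding, with a mean difference of 0.09 (SE 0.104). A second, dimmer Vamp1 probe gave -0.00056 for the same comparison. Vamp3, a form found in most cell types, spanned 3.23 to 3.44 over all arrays and is not specific to neurons.

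Snap25, the plasma membrane partner of Stx1a, read 0.67, 1.08 and 0.68 with P61S, 0.75, 1.24 and 0.56 with P61S/R100E, and 1.00 and 1.24 with wild type. The groups overlapped. The differences were 0.04 between the mutants (SE 0.204), -0.27 for P61S/R100E and -0.31 for P61S against wild type (SE 0.228 each). Without wild type replicate 2 the latter values were -0.14 and -0.18. A second, dimmer Snap25 probe gave 0.20 between the mutants (SE 0.435). Against wild type that probe gave -0.59 for P61S/R100E and -0.79 for P61S (SE 0.487 each). The highest P61S value and the highest P61S/R100E value both came from replicate 2, the arrays in slide column 2. The same held for Stx1a, Slc17a6, Vamp1, Syngr3, Bsn, Cadps, Sv2a, Rab3a, Rab3c, Syn1, Syt2, Amph and Nsf, and for no other measured member.

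Complexins clamp and then promote fusion. Cplx2 had the highest difference between P61S/R100E and P61S of any member. It read 0.25, 0.08 and 0.21 with P61S, 0.73, 0.22 and 0.52 with P61S/R100E, and 0.07 and 0.60 with wild type. The P61S/R100E replicate 2 lay inside the range of P61S. The difference was 0.31 (SE 0.18, 1.24-fold, 95% bounds -0.12 and 0.74, by limma, adjusted p = 0.999). Cplx1 read 3.65, 3.95 and 3.67, then 3.78, 3.67 and 3.72, then 3.69 and 3.72, with differences from -0.03 to 0.05. A second, dimmer Cplx1 probe gave -0.25 between the mutants (SE 0.203). Against wild type that probe gave -0.37 for P61S/R100E and -0.12 for P61S (SE 0.227 each). NSF and the SNAP proteins take spent SNARE complexes apart. Napa, the alpha-SNAP gene with a CRE, read 0.39, 0.33 and 0.38, then 0.37, 0.18 and 0.17, then 0.19 and 0.94. The high wild type value was that of replicate 2. Nsf, the ATPase, read -2.98, -2.78 and -3.0, then -2.99, -2.87 and -3.95, then -3.11 and -2.63. One P61S/R100E array alone was low, and its difference from P61S went from -0.35 to -0.0089 without that array. Napb, the neuronal beta-SNAP, spanned -5.00 to -3.74, with its maximum on wild type replicate 2.

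Rab3 proteins are the vesicle GTPases that recruit RIM at the active zone. Rab3b was the member with the smallest p between P61S/R100E and P61S. It read -1.42, -1.46 and -1.47 with P61S, -1.68, -1.56 and -1.78 with P61S/R100E, and -1.47 and -1.48 with wild type. Every P61S/R100E array lay below the other 5, which stood between -1.48 and -1.42. The difference was -0.22 (SE 0.0832, 1.17-fold) from P61S and -0.20 (SE 0.093) from wild type, with adjusted limma p-values of 0.999 and 0.746. It stood at -0.24 within slide row 1 and -0.20 within row 2, and at -0.10 between the 2 arrays in slide column 2. Rab3a, the main form in brain, read -0.78, -0.56 and -0.78, then -0.91, -0.57 and -1.15, then -0.58 and -0.51. Both mutants overlapped, and the difference of P61S/R100E from wild type was -0.33 (SE 0.174). Rab3c spanned -2.49 to -2.28.

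Priming and scaffold proteins of the active zone make docked vesicles ready for fusion. Cadps, which primes dense-core vesicles, read 1.40, 1.54 and 1.45 with P61S, 1.45, 1.59 and 1.43 with P61S/R100E, and 1.6 and 1.59 with wild type. Both wild type arrays were above all mutant arrays, the closest pair being equal after rounding. P61S differed from wild type by -0.13 (SE 0.0928). On a second, dimmer Cadps probe the groups overlapped, and that difference was -0.39 (SE 0.353). Bsn, the gene of the scaffold bassoon, read 0.71, 0.95 and 0.66, then 0.90, 0.97 and 0.82, then 0.88 and 0.78. It differed by 0.12 between the mutants on the brighter probe and by -0.06 on the dimmer one. Unc13b, a Munc13 priming gene, read -5.80, -5.30 and -5.85, then -5.29, -5.57 and -6.11, then -5.65 and -4.68. Its difference of -0.49 between P61S and wild type became -0.0032 without wild type replicate 2. Unc13a spanned -4.78 to -3.70, and the RIM genes Rims1 and Rims2 spanned -6.87 to -5.79 and -5.53 to -4.02. All 3 had their highest value on wild type replicate 2. Pclo, the piccolo gene, spanned -3.65 to -3.12.

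Several families of membrane proteins sit in the vesicle itself. Syngr1, a synaptogyrin, read -2.91, -2.81 and -2.89 with P61S, -2.95, -2.84 and -2.81 with P61S/R100E, and -2.92 and -2.40 with wild type. The 7 arrays other than wild type replicate 2 stood between -2.95 and -2.81. Syngr3 read 3.59, 3.8 and 3.59, then 3.67, 3.83 and 3.65, then 3.61 and 3.96, with a difference of 0.06 between the mutants. Synpr, which encodes synaptoporin, read 1.52, 1.5 and 1.54, then 1.45, 1.61 and 1.12, then 1.57 and 1.72. The P61S arrays lay below both wild type arrays, with a difference of -0.12 (SE 0.148). On a second, dimmer Synpr probe these groups overlapped, with a difference of -0.12 (SE 0.143). There the P61S/R100E arrays lay below both wild type arrays (-0.29, SE 0.143), whereas on the brighter probe they overlapped them. Sypl1, a synaptophysin relative found in many cell types, read -0.27, -0.19 and -0.22, then 0.13, 0.00 and -0.36, then 0.13 and -0.53, and the groups overlapped. The Sv2 genes, which encode vesicle glycoproteins that bind synaptotagmin, differed between the mutants by -0.09 (Sv2a), 0.06 (Sv2b) and 0.02 (Sv2c).

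Synapsins tie vesicles to each other in the reserve pool. Syn1, the third gene with a CRE shown above, read -2.93, -2.80 and -3.03 with P61S, -2.92, -2.76 and -3.32 with P61S/R100E, and -2.83 and -2.43 with wild type. The groups overlapped, and P61S/R100E differed from wild type by -0.37 (SE 0.198, by limma, adjusted p = 0.746). That difference was -0.17 without wild type replicate 2 and -0.57 without replicate 1. Syn2 read -1.05, -1.43 and -1.02, then -1.20, -1.56 and -0.72, then -1.76 and -1.0, and the groups overlapped, with a difference of 0.01 between the mutants. Slc17a6, the VGLUT2 gene that loads glutamate in these neurons, read 2.44, 2.64 and 2.46 with P61S, 2.29, 2.56 and 2.35 with P61S/R100E, and 2.54 and 2.44 with wild type. Its differences were -0.11 between the mutants (95% bounds -0.36 and 0.13), -0.09 for P61S/R100E and 0.02 for P61S against wild type. Of the retrieval genes, Amph, which encodes amphiphysin, read -2.95, -2.83 and -2.97, then -3.04, -3.0 and -3.25, then -3.02 and -2.66. All P61S/R100E arrays lay below all P61S arrays, with a difference of -0.18 (SE 0.123, by limma, adjusted p = 0.999). Dnm1, the neuronal dynamin, spanned -5.15 to -3.43 and differed by -0.26 between the mutants (SE 0.357). It read -5.15 on P61S/R100E replicate 3, and the difference was 0.11 without that array.

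Set beside all probes, the members' counts between P61S/R100E and P61S stayed near the background. At an unadjusted p under 0.05, 1 of 39 members (2.56%), Rab3b, was lower with P61S/R100E, where 2.07% of all tested probes were lower. On the same rule 0 members were higher, where 1.94% of probes were. Groups did not overlap in 4 members that were lower (10.3%), namely Syt2, Syt9, Rab3b and Amph, against 8.23% of probes, and in 0 that were higher, against 5.75%. The median difference was -0.05 over the members and -0.02 over all probes, with 25 of 39 members (64.1%) and 57% of probes below 0, and 14 members (35.9%) and 43% of probes above 0. When P61S/R100E replicate 2 was left out, 2 members were lower and 1 was higher at an unadjusted p under 0.05, beside 1.93% and 2.7% of probes. With any 1 of the other 5 mutant arrays left out, 0 were past it in either direction. When either wild type array was left out, 3 were lower by that rule (Syt9, Rab3b and Syt2), with adjusted limma p-values from 0.549 to 0.784, and 3.78% of probes were lower, since the wild type replicates then no longer entered the estimate of the spread.

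**Figure D2:**
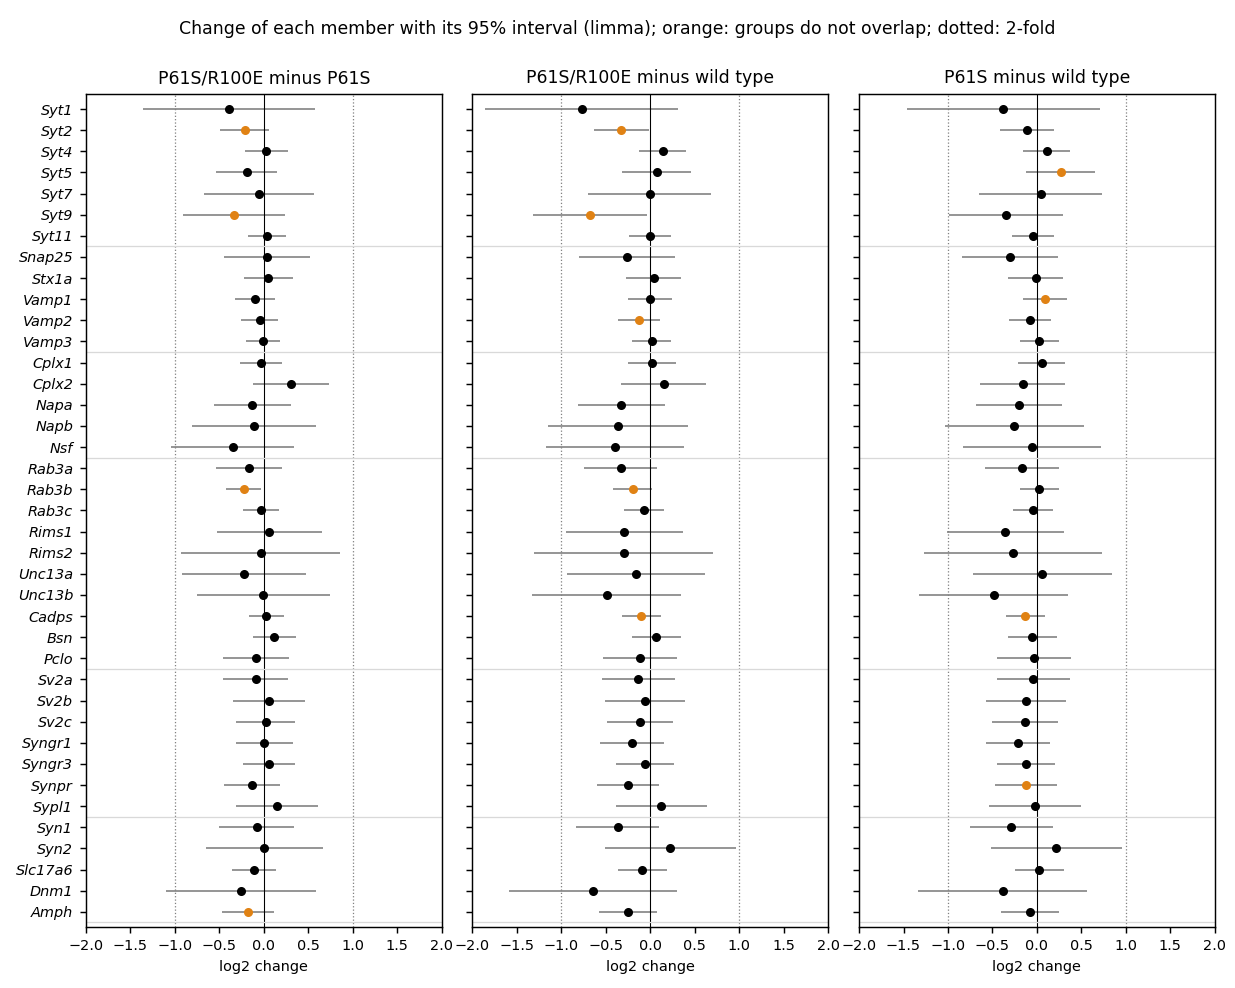
Difference of each of the 39 members in log2 units (point) with its 95% interval from limma (line) for the 3 comparisons, ordered by role from calcium sensors (top) to membrane retrieval (bottom). Orange points mark members whose compared groups do not overlap, dotted lines mark a 2-fold change, and the P61S/R100E minus P61S points lie between -0.39 and 0.31.

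Against wild type, most members read lower with either mutant, and that lean came with 1 array. With P61S/R100E, 30 of 39 members (76.9%) had a difference below 0, as did 62.4% of all probes, and 9 members and 37.6% of probes were above 0. The median was -0.13 for the members and -0.06 for all probes. With P61S, 29 members (74.4%) and 60.1% of probes were below 0, and 10 members and 39.9% of probes above 0, with medians of -0.08 and -0.04. Both comparisons use the same wild type arrays. Centring on the median of detected probes instead left 24 and 21 members below 0, beside 47% and 45.4% of probes, and quantile normalization left 24 and 25, beside 49.7% and 51% of probes. Without wild type replicate 2, the counts below 0 were 19 of 39 members with P61S/R100E (48% of probes) and 14 with P61S (41.4% of probes), and the medians were 0.0028 and 0.05. Within slide row 1, which holds wild type replicate 1, the median member difference was 0.0040 with P61S/R100E and 0.08 with P61S. Within row 2, which holds wild type replicate 2, it was -0.30 and -0.31.

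Wild type replicate 2 had the highest signal of the 8 arrays for 21 of 39 members (53.8%), against 37.2% of all tested probes. P61S/R100E replicate 3 had the lowest signal for 12 members (30.8%), against 18.7% of probes. With wild type replicate 1 left out, the wild type group was the array standing apart. The median difference was then -0.30 over the members and -0.13 over all probes with P61S/R100E. With P61S these medians were -0.26 and -0.10. The members that limma called in that setting were Syt9 (-1.20), Napa (-0.70) and Syt1 (-1.61) with P61S/R100E, and Syt9 (-0.87) with P61S. The lone array is there assumed to vary like the other groups. Without wild type replicate 2, limma called 0 members in either comparison, and 0 were past an unadjusted p of 0.05.

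**Figure D3:**
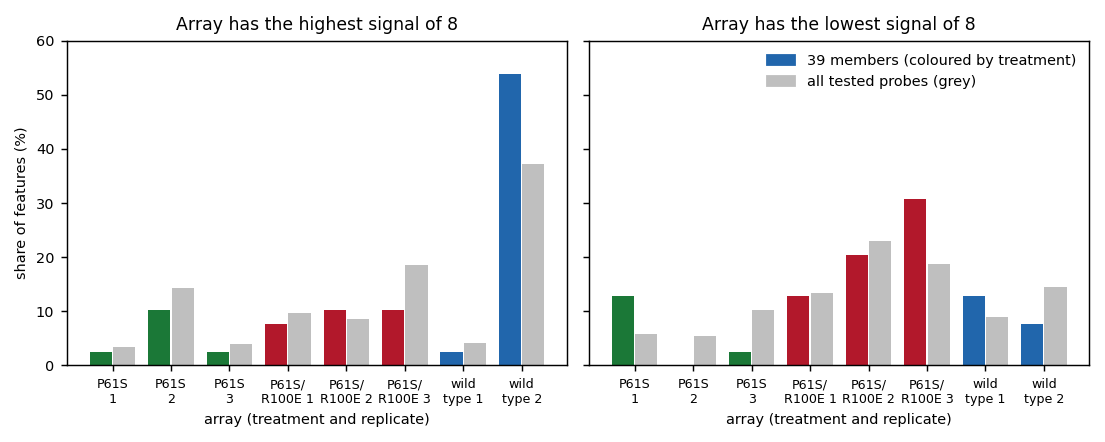
Share of features (percent) for which each array had the highest (left) or lowest (right) signal of the 8 arrays, for the 39 members (coloured by treatment) and for the 23585 tested probes (grey). Wild type replicate 2 was highest for 53.8% of members and 37.2% of probes.

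The counts against wild type by single members were again close to the background. With P61S/R100E, Syt2 and Syt9 were lower at an unadjusted p under 0.05 (5.13% of members, 3.44% of probes) and 0 members were higher (1.6% of probes). That count of 2 lower members rested on which arrays were used. It was 13 without wild type replicate 1, where 21.1% of all probes were lower, and 5 without P61S/R100E replicate 2, where 2.46% were. It was 1 without P61S replicate 2 (3.22% of probes) and 0 without any 1 of the remaining 5 arrays, wild type replicate 2 included (0.996% of probes without that array). Groups did not overlap in 5 members that were lower (12.8%, against 9.2% of probes), Syt2, Syt9, Rab3b, Vamp2 and Cadps, and in 0 that were higher (5.86% of probes). With P61S, 0 members were past an unadjusted p of 0.05 in either direction (0.691% of probes higher, 1.38% lower), and 8 were lower and 2 higher without wild type replicate 1, where 16.3% of probes were lower and 3.39% higher. Non-overlapping groups were found for 2 members that were higher, Syt5 and Vamp1 (5.13%, against 7.39% of probes), and for 2 that were lower, Cadps and Synpr (5.13%, against 9.23% of probes).

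Dimmer members had a larger median error, though the ranges of SE overlapped. The 15 members above the array's 75th percentile had a median SE of 0.104 for the difference between the mutants, with a range of 0.0824 to 0.204. The 24 members below it had a median SE of 0.186, with a range of 0.0832 to 0.409, the highest being that of Syt1. All probes split the same way had median SEs of 0.101 and 0.17. For Syt1 the difference between the mutants was smaller than its SE, and for Vamp3 its 95% bounds were -0.21 and 0.19. A further 9 probes were available, since 9 members had 2 measured probes. Paired probes had opposite signs in 8 of 27 comparisons. In 1 of these, Syt4 with P61S/R100E against wild type, both values exceeded their SE (0.14, SE 0.113, and -0.26, SE 0.216).

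Other genes of the release pathway, outside the 42, were called by limma in none of the 3 comparisons. Of 54 SNARE partners and regulators 48 were measured, and 0 passed over all probes in any comparison. Between P61S/R100E and P61S, 1 was higher and 3 were lower at an unadjusted p under 0.05, where 1.94% of all probes were higher and 2.07% lower. These were Doc2a, a calcium sensor of spontaneous and asynchronous release (0.51, SE 0.164, well above background on every array), the atypical synaptotagmin Syt17 (-0.48, SE 0.1), the dense-core vesicle GTPase Rab27a (-0.29, SE 0.079) and the priming gene Unc13c (-0.35, SE 0.141). Against wild type P61S/R100E gave 0.51 (SE 0.184) for Doc2a, -0.30 (SE 0.112) for Syt17 -0.41 (SE 0.0883) for Rab27a and -0.38 (SE 0.157) for Unc13c, from the same P61S/R100E arrays. At an unadjusted p under 0.05 against wild type, 1 of the 48 was higher and 4 were lower with P61S/R100E, beside 1.6% and 3.44% of probes. With P61S, 1 was higher and 1 was lower, beside 0.691% and 1.38% of probes. Cplx3, a complexin of ribbon synapses, differed from wild type by -0.72 with P61S/R100E and by -0.81 with P61S (SE 0.188 each). Without wild type replicate 2 these values were -0.37 and -0.46. The values of these 5 genes over all arrays did not pass, with adjusted limma p-values from 0.606 to 0.999.

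Of 28 endocytosis and recycling genes 24 were measured, with a median difference of 0.04 between the mutants and 0 past an unadjusted p of 0.05. Of 22 genes of vesicle loading and acidification 21 were measured, with a median of -0.06. One of them was past an unadjusted p of 0.05, Atp6v1d, a subunit of the proton pump that energises transmitter uptake (-0.30, SE 0.0945, by limma, adjusted p = 0.999). Against wild type, 1 of the 24 endocytosis genes was lower at that p with each mutant, beside 3.44% and 1.38% of probes. It was Ston1, an endocytic adaptor gene, which differed by -0.96 with P61S/R100E and by -0.88 with P61S (SE 0.326 each). Without wild type replicate 2 the Ston1 differences were -0.41 and -0.32. Slc17a8, which encodes the transporter VGLUT3, was also past that p with P61S/R100E against wild type, but it was not well above background on any P61S/R100E array. Sncb, the beta-synuclein gene, belongs to the SNARE partners and regulators above. It differed by 0.49 between P61S and wild type (SE 0.202), and by 0.16 without wild type replicate 2. The pan-neuronal markers had a median of -0.00013, with 8 above 0 and 9 below, and the highest difference was that of Tubb3, a neuronal tubulin (0.35, SE 0.0757, by limma, adjusted p = 0.654). Glial markers had a median of 0.0032. Fibroblast markers had a median of 0.14, with 9 of 10 above 0, and endothelial and mural markers one of -0.14, with 6 of 8 below 0, and limma called 0 of either list. Against wild type the medians of the pan-neuronal markers were -0.07 with P61S/R100E and -0.08 with P61S, beside -0.13 and -0.08 for the members. The part of cell makeup in the members' values was not tested.

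**Figure D4:**
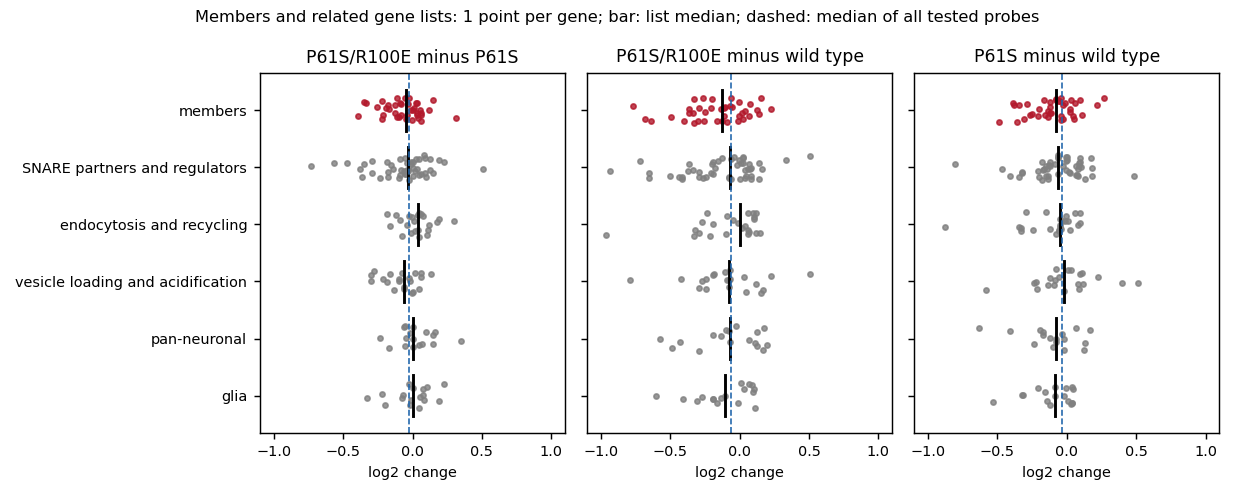
Difference in log2 units for each gene of the release machinery (red, 39 members) and of 5 other lists (grey), with the list median as a black bar and the median of all tested probes as a dashed blue line. Between P61S/R100E and P61S the list medians run from -0.06 to 0.04, and all 3 panels show list medians near the dashed line.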

How the data were processed

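RNA of 8 samples of cultured cells was read on one-colour (Cy3) Agilent arrays. Per the file headers, the deposited scanner values are spot intensities from Feature Extraction 10.7.3.1, background-subtracted and spatially detrended within each array. The authors' deposited log2 matrix of 22018 probes (array medians 9.82 to 10.33, correlation with the scanner log2 of at least 0.999) served as an alternative, and its scale matched log2 of the scanner signal without centring. Per the labels, samples with an RNA integrity number under 8.0 were discarded.

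Here log2 of the processed signal minus the array's 75th percentile was computed, with control spots and outlier spots left out and spots of a probe averaged. Of 30367 probes, the 23585 that were well above background throughout 1 or more groups were tested. They were fitted in 1 limma model (limma 3.58.1, R 4.3.3) with 3 group means, 5 residual and 1.93 prior degrees of freedom, and Benjamini-Hochberg adjustment at 0.05 over all tested probes. limma's intervals are 95% intervals. The fit was tested on simulated data. Probes were named through RefSeq accessions. The array design was annotated on rn4 and the RefSeq table on GRCr8, so no probe coordinates are given.

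The members and lists were chosen with earlier results of these data known. Per-array values are given for the 5 members with the smallest p in each direction of each comparison and for 7 measured core members. Napa, Nsf and Synpr were added after their values were seen. Alternatives covered background correction, normalization, the deposited values, filters, replicate number, slide row and column, the groups fitted, the variance model, each array left out and further probes. Leaving out wild type arrays for the pathway genes was chosen after seeing the data. The normexp alternative used the median spot signal in place of the mean.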

Additional observations from a re-analysis of the deposited data

How the results depend on the processing

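The call of 0 members held under every alternative run other than leaving out wild type replicate 1, and 0 to 3 members were then called over the leave-one-out fits of P61S/R100E against wild type and 0 to 1 for P61S against wild type. The number of probes called between P61S/R100E and P61S was 1 with the deposited values, 1 with only probes above background on every array, 6 with a variance trend and robust fit, and 0 to 3 with an array left out. Against wild type, P61S/R100E gave 1 probe with normexp and quantile normalization, with quantile normalization alone, with the deposited values, with the stricter filter and with the variance trend, and 0 to 1244 with an array left out. P61S against wild type gave 1 probe with normexp and quantile normalization and 1 with quantile normalization alone, and 0 to 250 with an array left out. With an array left out, the members' median ran from -0.30 to 0.0028 for P61S/R100E against wild type and from -0.26 to 0.048 for P61S against wild type. Replicate numbers did not pair the samples, since deviations of same-numbered arrays had correlations of -0.20 to 0.17. With the replicate block, limma called 0 probes and 0 members in each comparison, with medians of -0.05, -0.11 and -0.06, and Stx1a between P61S and wild type turned to 0.021.

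Directions of uncalled members turned in these settings, and the cause was not tested. With slide column as a covariate, Syt5 was 0.012 and Syn1 0.038 between the mutants, and between P61S and wild type Unc13b was 0.035, Syt5 -0.15, Syt4 -0.043, Syt1 0.64, Vamp2 0.091 and Slc17a6 -0.045. Since wild type alone fills its column, these values against wild type rest on a straight line extrapolated from the mutant arrays. Slc17a6 was 0.00080 for P61S/R100E against wild type with the deposited values and -0.032 for P61S against wild type with normexp. Stx1a was 0.043 between P61S and wild type after centring on the detected median. On a second probe, Bsn was -0.056 between the mutants and -0.21 for P61S/R100E against wild type. Syt4 was -0.26 and -0.30 against wild type for P61S/R100E and P61S, and for P61S Cplx1 was -0.12 and Vamp1 -0.00056. Among the members named by rule, others turned when an array was left out. Between P61S/R100E and P61S these ranges were -0.15 to 0.19 for Snap25, -0.082 to 0.015 for Vamp2, -0.035 to 0.14 for Stx1a and -0.20 to 0.082 for Syn1. Between P61S/R100E and wild type these ranges were -0.049 to 0.10 for Stx1a, -0.11 to 0.42 for Cplx2, -0.16 to 0.60 for Syn2, -0.012 to 0.29 for Syt4, -0.20 to 0.45 for Sypl1 and -1.61 to 0.066 for Syt1. Between P61S and wild type these ranges were -0.10 to 0.030 for Stx1a, -0.043 to 0.11 for Cplx1, -0.037 to 0.076 for Slc17a6, -0.16 to 0.60 for Syn2, -0.47 to 0.048 for Syngr1, -0.042 to 0.26 for Syt4 and -1.22 to 0.46 for Syt1. The array number limits the precision, and dimmer probes had the larger median error.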
